A study of Homo sapiens with 5 samples.

Results

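The footprints of 1 QTRT1 knockout library were set against those of 2 QTGAL knockout libraries, 3 of the 5 ribosome profiling libraries in the series. All came from HEK293T, a human embryonic kidney line that carries the large T antigen of SV40. The members were every transcript with a length in the tables, 93916 in all, of which 60966 had enough counts to be tested. The only genetic difference the labels give is the knocked-out gene, and no treatment is listed. The other 2 libraries, of QTMAN knockout cells, served to estimate the spread and are given beside the values as a second reference. Libraries of unedited cells were not analysed here. Whether a genotype is 1 clone or several, and whether its libraries came from separate cultures, is not given in the sources used here, so p-values measure only the spread between these libraries. The libraries held between 12002044 and 25291912 counts, with 13918194 in the QTRT1 library, 23470931 in QTGAL library 1 and 12002044 in QTGAL library 2.

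Queuosine takes the place of guanosine in the first anticodon base of tRNAs that read tyrosine, asparagine, histidine and aspartate codons. The base comes from the diet and from gut bacteria as queuine, and a transglycosylase of QTRT1, its active subunit, and QTRT2 exchanges it into the tRNA, so loss of QTRT1 takes queuosine from all of these tRNAs. QTGAL, the product of B3GNTL1, adds galactose to queuosine in the tRNA for tyrosine, and QTMAN, the product of GTDC1, adds mannose in the tRNA for aspartate. The comparison thus set cells meant to lack the base against cells meant to keep it but lack its galactose on tyrosine tRNA. Footprints depend on the amount of an mRNA as well as on its translation. RNA levels were not analysed here, so these cannot be told apart.

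The tables name transcripts by identifier only. Gene names were inferred from the coding length in codons and the place of a row in genome order, with protein lengths known from general knowledge, and are inferences, not labels of the files. Of 649 names placed, 609 met a criterion on place and coding length, or on length alone at chromosome ends, and are used here. Coordinates are those of the named gene in RefSeq on GRCh38, the build that hg38 denotes. CPM are library-size-scaled counts computed from the counts with TMM factors. Differences without a stated model are on the log2(CPM + 0.5) scale, which understates the change of low transcripts.

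The targeted genes were examined first. QTRT1 (uc002mpr.4, 404 codons, 19:10701439-10713365) had 18 counts in the QTRT1 library, or 1.28 CPM with an exact Poisson 95% interval of 0.76 to 2.03 that covers counting error only. It stood at 13.0 and 8.26 CPM in the QTGAL libraries and at 10 and 10.6 CPM in the QTMAN libraries. The QTRT1 library was below all others, and the intervals did not overlap. QTRT1 fell by 3.07 on the log2 scale (SE 0.36, adjusted p = 0.0277 in edgeR's quasi-likelihood test). B3GNTL1 (uc002kgg.1, 362 codons), the gene knocked out in the QTGAL libraries, had 0.629 and 0.758 CPM there, 1.14 CPM in the QTRT1 library, and 2.73 with 1.88 CPM in the QTMAN libraries. Its interval in the QTRT1 library, 0.651 to 1.85 CPM, overlapped those of both QTGAL libraries, so at this depth B3GNTL1 does not set the compared knockouts apart. GTDC1 (uc002tvp.4, 459 codons), the gene knocked out in the QTMAN libraries, was at 7.86 CPM in the library labelled QTMAN knockout 1 and at 0.614 CPM in QTMAN library 2. The former was above the QTRT1 library, at 0.427 CPM, as well as both QTGAL libraries (0.545 and 0.758 CPM), which goes against its label if the deletion removes the counted codons; where the deletions lie is not given in the sources used here.

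Few transcripts passed the test between the knockouts. With all 5 libraries in the fit, edgeR called 5 transcripts higher and 1 lower in the QTRT1 library at an adjusted p under 0.05. These 6 calls are 0.00984% of the 60966 tested (0.0082% higher and 0.00164% lower), while 6114 had an unadjusted p under 0.05. The calls lay at 3 loci, KIF1A and FADS2 among the higher and QTRT1 among the lower. The QTRT1 knockout has 1 library, which the model assumes to vary like the others. The count rested on single libraries, since the fit called 219 transcripts without QTGAL library 2, 264 without QTMAN library 1 and 862 without QTMAN library 2, each time with all 6 of these calls, but 8 without QTGAL library 1, with 4 of the 6.

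KIF1A encodes a kinesin motor that carries synaptic vesicle precursors along axons. Its transcript of 1691 codons (uc031rsb.2, gene at 2:240713767-240821403) had 73.1 CPM in the QTRT1 library, against 23.3 and 26.4 CPM in the QTGAL libraries, and 18.1 and 19.0 CPM in the QTMAN libraries. The QTRT1 library was the highest and the other 4 lay close together. KIF1A rose by 1.56 on the log2 scale (SE 0.15, adjusted p = 0.00444 in edgeR's test). Neighbouring rows of 1792, 1471 and 357 codons, which may share footprints with it, were called as well. With the QTRT1 and QTGAL libraries alone in the fit, the adjusted p of uc031rsb.2 was 0.0877.

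FADS2 encodes a desaturase of polyunsaturated fatty acid synthesis. Its transcript of 445 codons (uc001nsl.3, gene at 11:61816203-61867354) had 38.4 CPM in the QTRT1 library, against 15.3 and 16.7 CPM in the QTGAL libraries and 13.3 and 14.0 CPM in the QTMAN libraries. Again the QTRT1 library stood above the 4 others. FADS2 rose by 1.27 on the log2 scale (SE 0.16, adjusted p = 0.0473 in edgeR's test). Its 7 other passing rows had adjusted p-values from 0.0521 upwards. The call was lost without QTGAL library 1 (adjusted p = 0.0853), with at least 5 CPM required in 2 libraries (0.0555) and with 3 libraries in the fit (0.228). The QTRT1 call was also lost under these last settings (0.0555 and 0.228).

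With 1 QTRT1 library, sizes were also set against the distance between the QTGAL libraries, without a test. A transcript was kept where it differed by at least 2-fold, reached 5 CPM in the higher group, and lay beyond both QTGAL libraries by more than these differed from each other. This kept 115 transcripts, 87 higher in the QTRT1 library (0.143% of those tested) and 28 lower (0.0459%). Many were isoform rows of one gene, so the higher ones formed 26 loci, 19 of them named, and the lower ones 13 loci, 6 of them named. The rule itself places the QTRT1 library beyond both QTGAL libraries, so only its rank against the QTMAN libraries was free to vary. Just inside the fold limit were uc002drx.3 with a log2 difference of 1.004 and uc004eps.4 with -1.012, and just outside were uc002fiy.5 with 0.995 and uc002heu.5 with -0.996. With 1 transcript for each run of neighbouring rows of like density and a mean of at least 5 CPM, 5905 remained. Of these, 0.999% were 2-fold apart between the QTRT1 library and QTGAL library 1, 0.508% between it and QTGAL library 2, and 0.356% between the QTGAL libraries themselves.

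**Figure D1:**
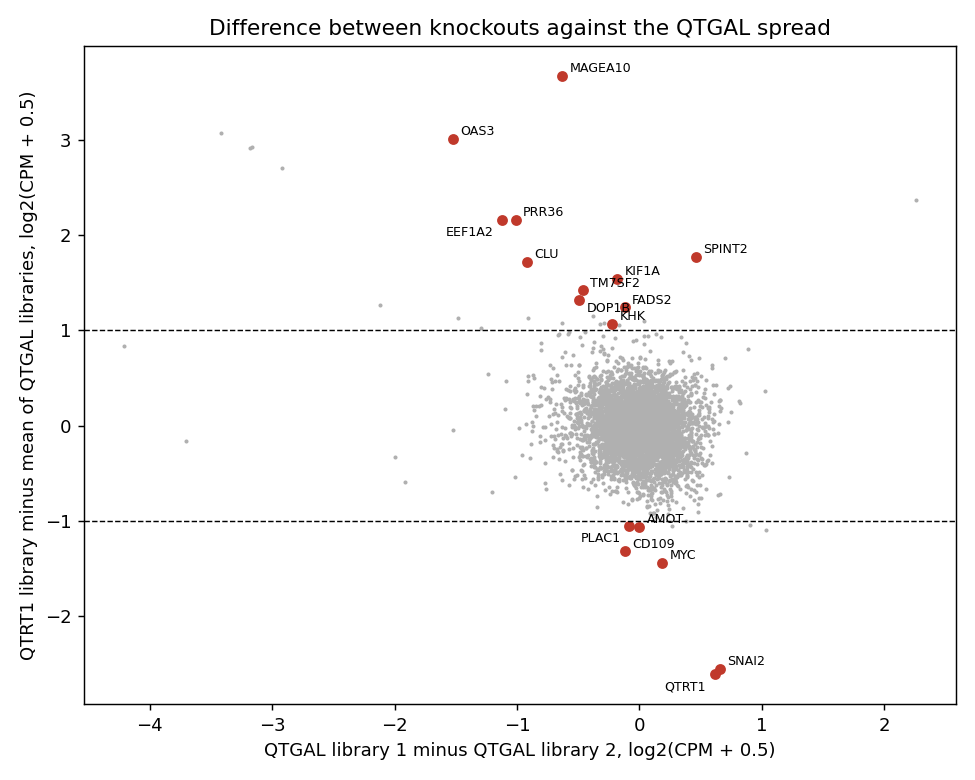
Difference between the QTRT1 library and the mean of the QTGAL libraries (vertical axis) against the difference between the QTGAL libraries (horizontal axis), both on the log2(CPM + 0.5) scale. Grey points are 5905 transcripts, 1 per run, with a mean of at least 5 CPM, and red points are 17 of the named transcripts; the dashed lines mark 2-fold, and MAGEA10 is the highest named point at 3.67 and QTRT1 the lowest at -2.61 on this scale.

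Of the named genes, the largest positive difference was that of MAGEA10, a cancer-testis antigen encoded on the X chromosome. Its transcript (uc004ffk.4, 370 codons) had 16.7 CPM in the QTRT1 library against 0.587 and 1.18 CPM in the QTGAL libraries. The log2 difference was 3.67, yet QTMAN library 1 reached 33.9 CPM and QTMAN library 2 only 1.76 CPM. Libraries of one genotype thus differed as widely as the knockouts, and edgeR's adjusted p was 0.286. MAGEA genes are close paralogs and may share footprints.

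OAS3 makes oligoadenylates that activate RNase L and is induced by interferon. It had 10.3 CPM in the QTRT1 library, against 0.294 and 1.77 CPM in the QTGAL libraries, and 0.577 and 3.52 CPM in the QTMAN libraries (log2 difference 3.01, adjusted p = 0.187 in edgeR's test). The QTRT1 library was the highest of the 5, with several-fold differences inside each pair. The QTGAL libraries were 1.52 log2 units apart.

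EEF1A2, a form of the translation elongation factor that is mostly made in neurons and muscle, was the most abundant of the named genes with a higher value. It had 200 CPM in the QTRT1 library, against 29.8 and 65.5 CPM in the QTGAL libraries, and 42.7 and 84.0 CPM in the QTMAN libraries. The log2 difference was 2.16 (adjusted p = 0.15 in edgeR's test). CLU, a secreted chaperone, had 37.5 CPM against 7.89 and 15.3 CPM in the QTGAL libraries, with 8.39 and 20.1 CPM in the QTMAN libraries. Its log2 difference was 1.72, and it did not pass edgeR's test. In CLU as in EEF1A2 library 2 of both genotypes was above library 1, and the QTRT1 library was above all 4. EEF1A2 and EEF1A1 are close paralogs and may share footprints.

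SPINT2, an inhibitor of serine proteases, had 8.9 CPM in the QTRT1 library against 2.73 and 1.85 CPM in the QTGAL libraries, with 1.63 and 1.47 CPM in the QTMAN libraries. The log2 difference was 1.77 (adjusted p = 0.0895 in edgeR's test). TM7SF2, a sterol reductase of cholesterol synthesis, had 12.5 CPM against 3.65 and 5.22 CPM, with 3.62 and 3.52 CPM in the QTMAN libraries (1.42, adjusted p = 0.115 in edgeR's test). In both genes the 4 other libraries lay together below the QTRT1 library. PRR36 had 5.06 CPM against 0.378 and 1.26 CPM, and DOP1B 9.75 CPM against 2.98 and 4.38 CPM. KHK, which phosphorylates fructose, had 6.05 CPM against 2.39 and 2.86 CPM. None of these 3 passed edgeR's test (adjusted p from 0.135 to 0.239), and each was highest in the QTRT1 library.

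SNAI2 encodes a transcription factor of the epithelial to mesenchymal transition. It had 7 counts in the QTRT1 library, or 0.498 CPM with a 95% interval of 0.2 to 1.03. The QTGAL libraries had 6.84 and 4.13 CPM and the QTMAN libraries 9.65 and 7.09 CPM. The QTRT1 library lay well below all others, with a log2 difference of -2.55 and an edgeR estimate of -3.49 (SE 0.51, adjusted p = 0.0777). ZEB1 and ZEB2, other transcription factors of that transition, had differences of -0.18 and -0.13.

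MYC, a transcription factor that promotes growth, had 10.8 CPM in the QTRT1 library, against 32.2 and 28.1 CPM in the QTGAL libraries, and 18.8 and 33.1 CPM in the QTMAN libraries (log2 difference -1.44, adjusted p = 0.174 in edgeR's test). CD109, a protein tethered to the cell surface, had 2.63 CPM against 7.01 and 7.67 CPM, with 9.49 and 10.4 CPM in the QTMAN libraries. AMOT, a junction protein that binds YAP, had 71.4 CPM against 150 and 150 CPM, with 258 and 173 CPM in the QTMAN libraries. AMOT was thus the most abundant of the named lower genes, and its QTGAL values were alike. PLAC1, a gene expressed mainly in placenta, had 2.49 CPM against 5.54 and 5.9 CPM. CD109, AMOT and PLAC1 did not pass edgeR's test (adjusted p = 0.141, 0.165 and 0.204).

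**Figure D2:**
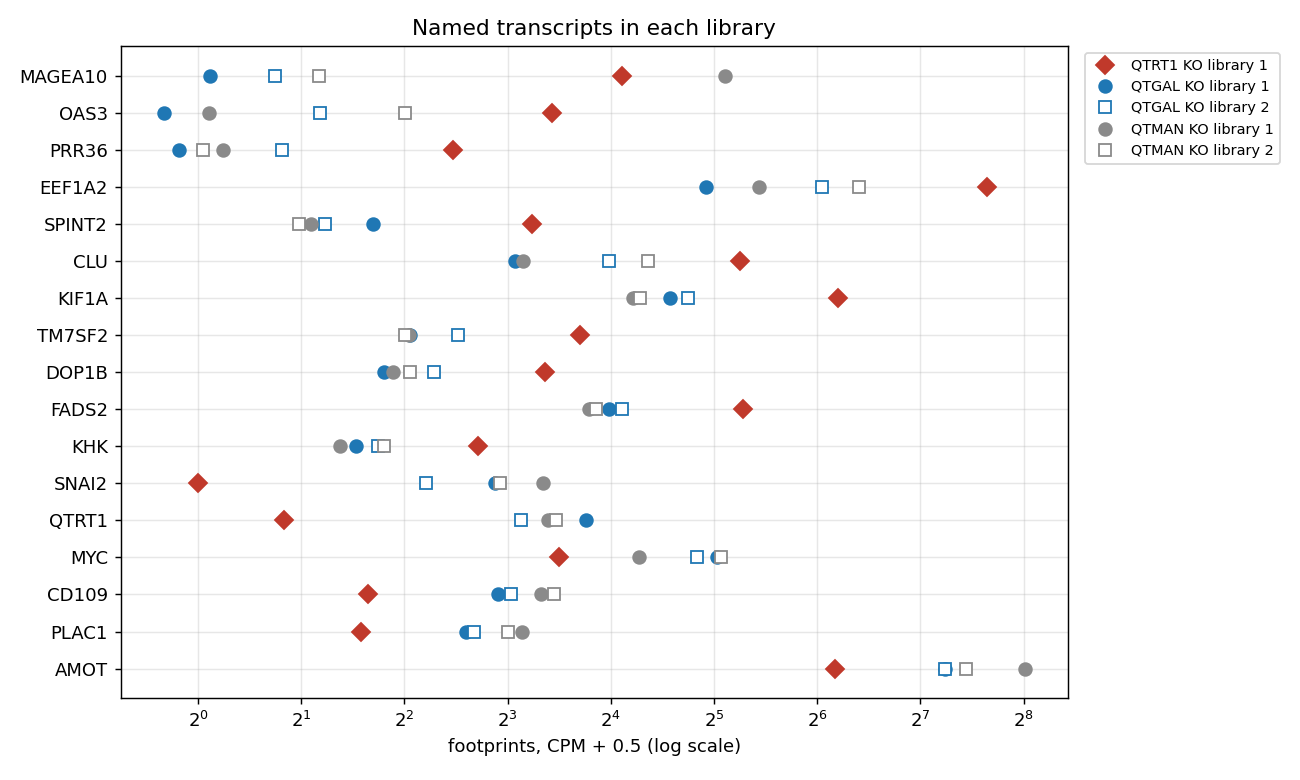
Footprints of 17 named transcripts in each library, as CPM + 0.5 on a log axis, with the QTRT1 library as red diamonds, QTGAL libraries in blue and QTMAN libraries in grey (filled circles for library 1, open squares for library 2). The size rule that these transcripts passed places the QTRT1 library beyond both QTGAL libraries in each line. It is also beyond both QTMAN libraries except for MAGEA10, where QTMAN library 1 is higher at 33.9 CPM.

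The other genes of the queuosine list, which also holds 2 tRNA methyltransferases, TRMT5 and TRDMT1, had no call. QTRT2, the partner of QTRT1, had 13.0 CPM in the QTRT1 library, against 16.7 and 13.7 CPM in the QTGAL libraries, which differed from each other by more than the QTRT1 library did from the lower of them. QNG1, which salvages the queuine base, had 11 CPM against 11.4 and 13.1 CPM. SLC35F2, a transporter that takes up queuine, had 11.7 CPM against 9.44 and 11.5 CPM. TRMT5, a tRNA methyltransferase, had 12.7 CPM against 13.8 and 12.7 CPM. TRDMT1, which methylates the tRNA for aspartate, had 2.56 CPM against 2.43 and 1.94 CPM. Apart from QTRT1, the members of this list differed by between -0.31 and 0.46. The largest of these differences, of B3GNTL1, lay in a stretch of rows whose median was itself higher by 0.33. Such a stretch does not stop at chromosome ends, so it can hold runs of a neighbouring chromosome.

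The enzymes that charge the tRNAs concerned were alike in most cases. All 8 synthetases were measured, the cytosolic and mitochondrial forms for each amino acid, with a median difference of -0.07. NARS1, the cytosolic asparaginyl form, had 86.4 CPM in the QTRT1 library against 61.2 and 62.3 CPM, a difference of 0.48 in a stretch whose median was higher by 0.34. NARS2, its mitochondrial counterpart, had 5.13 CPM against 9.02 and 9.01 CPM, a difference of -0.76 with a stretch at -0.02. YARS1, the tyrosyl form, had 116 CPM against 109 and 141 CPM, and YARS2 24.7 CPM against 26.8 and 23.8 CPM. Both tyrosyl forms lay between the QTGAL libraries.

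Genes of cholesterol and fatty acid synthesis were mostly above the QTGAL libraries. Of 26 in the list, 20 were firmly placed with a mean of at least 5 CPM. Of these, 13 lay above both QTGAL libraries by more than these differed and 2 below, where all tested transcripts at that level gave 18.7% above and 22.4% below. Their median difference was 0.34, against -0.01 over all tested transcripts at that level. It was 0.46 against QTGAL library 1 alone and 0.24 against library 2 alone. With centring along the rows it was 0.27, and with the longest transcript of each run 0.23. Only FADS2 passed edgeR's test. SC5D, a sterol desaturase, had 62 CPM against 33.1 and 40.4 CPM, and LSS, which closes the sterol rings, had 32.4 CPM against 16.8 and 22.0 CPM. ACLY, which makes cytosolic acetyl-CoA, had 139 CPM against 270 and 244 CPM, in a stretch whose median was lower by 0.38.

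Collagens and other matrix genes had a median difference of 0.43 over 12 of 20 genes. It was 0.29 against QTGAL library 1 alone, 0.26 with centring along the rows and 0.24 with the longest transcript of each run. Of the 12 genes, 6 were above and 3 below both QTGAL libraries by more than these differed, beside 18.7% and 22.4% of all tested transcripts at that level. COL6A1 and COL6A2, chains of collagen VI, had differences of 0.72 and 0.74. The QTRT1 library had 48.0 CPM of COL6A1, against 27.4 and 30.7 CPM in the QTGAL libraries and 36.2 and 44.0 CPM in the QTMAN libraries. COL4A1 and COL4A2, chains of basement membrane collagen, differed by -0.25 and -0.24, and the laminin chain LAMC1 by -0.32. The laminin chains LAMA5, LAMB1 and LAMA1 went the other way at 0.65, 0.54 and 0.49, as did COL18A1 at 0.60. No member passed edgeR's test.

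Stress genes differed by small amounts. Of 13 genes of the unfolded protein response with a mean of at least 5 CPM, 8 were above and 2 below both QTGAL libraries by more than these differed, with a median of 0.23. All tested transcripts at that level gave 18.7% above and 22.4% below. The ends of this list were SYVN1, a ubiquitin ligase of the endoplasmic reticulum, at 0.47, PDIA4 at 0.34, and CALR and ATF6 at -0.13 and -0.11. HSPA5, the main chaperone of that compartment, had 320 CPM against 304 and 299 CPM. The integrated stress response gave a median of 0.06 over 16 genes, with none above and 1 below in this sense. Its direction turned with the QTGAL library, from 0.26 against library 1 to -0.17 against library 2. ATF4, its central transcription factor, had 15.7 CPM against 9.23 and 15.4 CPM, so it stood beside QTGAL library 2, and ATF3 had 4.41 CPM against 5.45 and 7.75 CPM. Cytosolic chaperones had a median of 0.08 over 17 genes, from TCP1 and HSPE1 at -0.38 and -0.29 to HSPB1 and STIP1 at 0.35 and 0.26. No gene of these lists passed edgeR's test.

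Of 69 ribosomal proteins of the cytosol, 7 were above and 22 below both QTGAL libraries by more than these differed. The median was -0.08. All tested transcripts with a mean of at least 5 CPM gave 18.7% and 22.4%, but the share below rose with level. With 1 transcript per run it was 21.4% at 5 to 20 CPM, 27.1% at 20 to 100 CPM and 30.7% at 100 CPM or more. The 22.4% is thus a low reference for abundant genes. RPS28 had 97.4 CPM against 145 and 150 CPM, and RPL26 had 236 CPM against 350 and 362 CPM. They lie in stretches whose medians were lower by 0.42 and 0.41. RPL17 and RPLP2 were the highest at 0.28, and the median of chromosome 18, which carries RPL17, was itself higher by 0.33. The 35 translation factors had a median of -0.04 with 2 above and 10 below, beside the same 18.7% and 22.4%, and the lowest, EIF3G and EIF1 at -0.67 and -0.65, again lay in stretches at -0.38 and -0.40. EIF6 was highest at 0.35. None of the 104 genes in these lists passed edgeR's test.

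Tubulins and actins had a median of 0.03 over 9 genes, from TUBG1 and TUBB6 at -0.30 and -0.06 to TUBB4B and ACTG1 at 0.19 and 0.23. Neuronal and axonal genes had a median of 0.15 over 10 (0.36 against QTGAL library 1 and 0.00 against library 2), from NEFM and INA at -0.60 and -0.46 to DPYSL3 at 0.43 and the called KIF1A. Genes of the cell cycle had a median of -0.01 over 22, from CCND1 and AURKB at -0.62 and -0.56 to PLK1 and MKI67 at 0.30 and 0.38. AURKB, like TUBG1, lies on chromosome 17, whose median was -0.22. Genes of the p53 response had a median of -0.16 over 5, with -0.29 against QTGAL library 1 and -0.02 against library 2. With the longest transcript of each run this median was 0.02. The 5 genes ran from BAX and CDKN1A at -0.53 and -0.24 to GADD45A and XPC at 0.02 and 0.16. BAX lies on chromosome 19 and CDKN1A on chromosome 6, whose medians were -0.24 and -0.14. Genes of tyrosine metabolism had -0.08 over 3, PTS at -0.10, FAH at -0.08 and SPR at 0.61. In the interferon list only 2 genes reached 5 CPM, among them IFITM3 at 0.50.

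**Figure D3:**
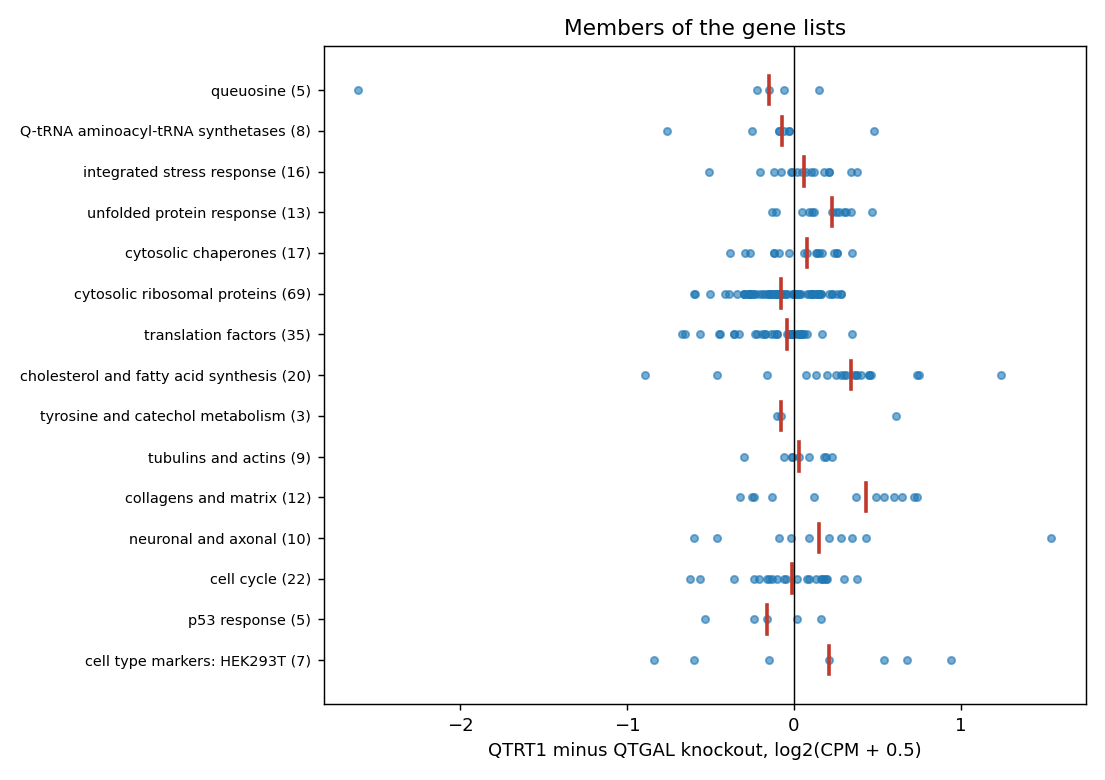
Difference between the QTRT1 library and the mean of the QTGAL libraries, on the log2(CPM + 0.5) scale, for each firmly placed member of 15 lists with a mean of at least 5 CPM. Blue points are genes, red bars the medians and the numbers in brackets the genes drawn; the medians run from -0.16 for the p53 response to 0.43 for collagens and matrix.

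Markers of the line were present. VIM had 358 CPM in the QTRT1 library against 362 and 435 CPM in the QTGAL libraries. Of 8 listed HEK293T markers 7 were placed, and all 7 had a mean of at least 5 CPM. Their differences ran from -0.84 for LIN28B to 0.94 for KRT18. KRT8, NEFL and NEFM were 1.23, 1.37 and 1.92 log2 units lower in QTGAL library 1 than in QTGAL library 2, so the list's median of 0.21 was 0.81 against library 1 and -0.28 against library 2. Of the markers of blood, fibroblasts, endothelium, hepatocytes and muscle, 4 were placed. PECAM1 of endothelium had 0 CPM in the 3 libraries compared, COL3A1 was under 1 CPM in them, and COL1A1 was between 2.95 and 3.73 CPM. ACTA1 of muscle was at 82.2, 70.9 and 79.3 CPM, but actins share most of their coding sequence and may share footprints.

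The medians of some chromosomes differed between the knockouts. Rows were given a chromosome where the named rows on both sides agreed, and runs with at least 500 counts were used. On chromosome 18 the median of 60 runs was higher in the QTRT1 library by 0.33, at 0.38 and 0.34 against QTGAL libraries 1 and 2, and 93.3% of the runs were higher. On chromosome 19 the median of 339 runs was -0.24, with 76.1% of the runs below both QTGAL libraries, and on chromosome 17 that of 343 runs was -0.22. Chromosomes 1 and 6 stood at -0.13 and -0.14, and the others lay between -0.04 and 0.09. The QTGAL libraries differed from each other by a median of at most 0.15, on chromosome 20. With each library centred on the median of neighbouring runs, edgeR called 13 transcripts, all 6 of the main calls among them. QTRT1 was then at -2.73 (adjusted p = 0.0232), FADS2 at 1.22 (adjusted p = 0.0232) and KIF1A at 1.58 (adjusted p = 0.00122), and SPINT2 passed the threshold at 1.98 (adjusted p = 0.0456). KIF1A and FADS2 lie in stretches with medians of -0.01 and 0.05, far from their own differences, and QTRT1 in one at -0.34.

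**Figure D4:**
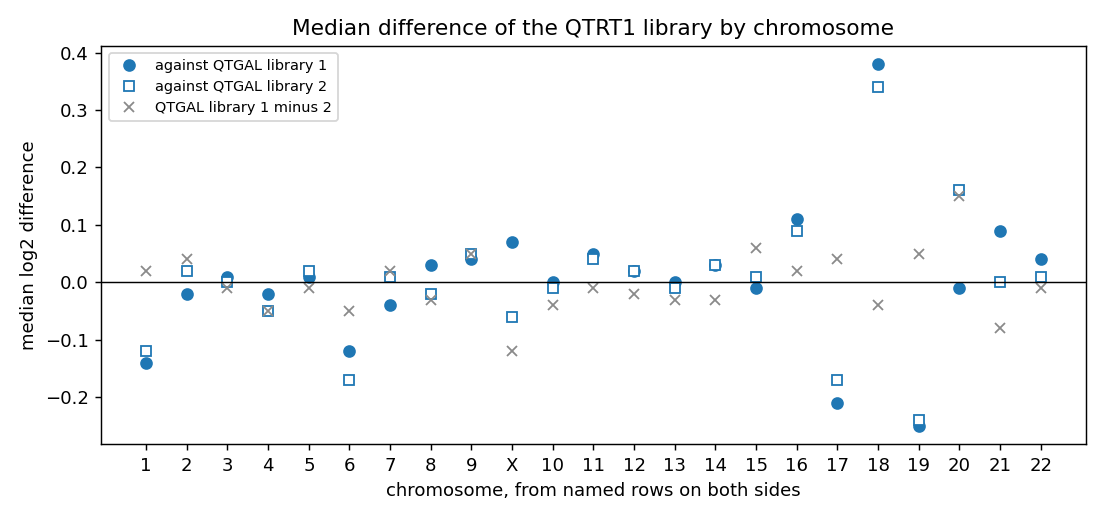
Median log2 difference of the runs of each chromosome, for the QTRT1 library against QTGAL library 1 (filled circles) and library 2 (open squares), and for QTGAL library 1 against library 2 (grey crosses). Chromosome 18 is high at 0.38 and 0.34 and chromosome 19 low at -0.25 and -0.24.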

How the data were processed

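Footprints were measured by ribosome profiling in 5 HEK293T libraries of 3 knockout genotypes. The deposited tables hold, per transcript, a whole-number count, not normalized, and a length that serves here as codons (a unit other than a count), per the file values. The submitters' processing notes name bcl2fastq 2.19, CASAVA, STAR 2.7.0a and hg38. The counting program, annotation and strand setting were not given in these sources. The 88482 of 182398 rows without a length were left out.

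Counts were tested with edgeR 4.0.16 in R 4.3.3 (filterByExpr, TMM, quasi-likelihood, 1 mean per genotype over 5 libraries, 2 residual degrees of freedom, Benjamini-Hochberg over 60966 transcripts, threshold 0.05). The common biological coefficient of variation was 12.1%. DESeq2 1.42.0 was an alternative. A run joins neighbouring rows with at least 100 counts whose counts per codon differ by less than 2-fold. The local stretch is the median of 25 runs on each side along the rows, with no stop at chromosome ends.

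Gene names are inferences. The design foresaw lengths from the reference, but the tables given hold no protein lengths, so lengths recalled from general knowledge were matched to the length column in RefSeq genome order. Matching took several passes with choices by hand, for the named hits after their values were seen. Early passes misplaced at least ATF4, RPS9, RPL28 and PSPH, and further errors may remain. The 649 names are in genome order, with a median of 10.2 rows between each and its place interpolated by protein-coding gene rank from its named neighbours; since place was used to choose rows, this is no independent test. A name was used within 60 rows of that place if no other locus of the same length nearby had 10% or more of its count. Nearby meant within 150 rows of the place and between the named neighbours. Rows within 40 rows of the named row were not counted as another locus. The first and last named genes of a chromosome, KIF1A among them, have no interpolated place. For these only the search for another locus was made, within 1000 rows. In this form 609 names passed, and 294 of 364 list genes. This criterion was set after the names and values were seen, and a first form that interpolated by base position and counted rivals of any count, under which fewer names passed, was replaced.

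Named genes are the calls, the 12 highest and the 12 lowest log2 fold changes with a name past the size rule (6 lower had one; 1 higher is not reported here), all queuosine genes, and for each other list the calls or its extremes; some further list genes were named after their values were seen. Members and lists were chosen with earlier results of these data known.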

Additional observations from a re-analysis of the deposited data

Results flagged for a closer look

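GTDC1, the gene knocked out in the QTMAN libraries, which lie outside the main comparison, had 7.86 CPM in the library labelled QTMAN knockout 1, from 150 counts. The exact Poisson 95% interval was 6.66 to 9.23 CPM. QTMAN library 2 had 0.614 CPM, and the QTRT1 and QTGAL libraries had between 0.427 and 0.758 CPM. It was picked out because this signal lies above the level in libraries where GTDC1 was not the target. Without QTMAN library 1, all 6 calls of the main test were made among 264.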

How the results depend on the processing

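Counts of calls changed with most settings; the cause was not tested. Against 6 transcripts called in the main test, DESeq2 size factors gave 11, no filter on low counts 645, the QTRT1 and QTGAL libraries alone 2 (none of the 6), 1 transcript per run 2, centring along the rows 13, and DESeq2's Wald test 63 of 13687 with an adjusted p. Leaving out 1 library gave between 8 and 862. Against 115 transcripts past the size rule, CPM + 2 gave 61, at least 2 CPM 307, at least 20 CPM 30, 1 transcript per run 23, QTGAL 1 alone 338 and QTGAL 2 alone 239. The named transcripts kept their direction under each setting that could test them, with no reversal. Of their 167 adjusted p-values under other settings, 110 kept their side of the threshold, 50 passed it and 7 no longer did (3 of FADS2, 3 of QTRT1 and 1 of KIF1A). QTRT1 had no adjusted p in DESeq2 and one of 0.0835 with 1 transcript per run. A list median counted as moved where it changed by more than the standard deviation of its 2 values against QTGAL 1 and QTGAL 2 alone. This is not the spread between the QTGAL libraries. Queuosine moved to -0.12 and -0.08 (QTGAL 1 and 2 alone) and -0.20 (centred), and unfolded protein response to 0.16 (QTGAL 1 alone) and 0.17 (all placed names). Ribosomal proteins moved to -0.01 (centred) and translation factors to -0.07 (QTGAL 2 alone) and -0.05 (centred). Tyrosine metabolism moved to 0.13 (all placed names) and tubulins and actins to 0.09 (longest length). Matrix moved to 0.24 (longest length) and 0.26 (centred), and cell cycle to -0.05 (longest length) and 0.04 (centred). Centring and all placed names were added for the lists after seeing the data. Amino acid content was not run, since no protein or coding sequences were used here. No paired analysis was possible because there is 1 QTRT1 library and the labels' numbers pair no libraries. Single-library depth limits transcripts of a few CPM, such as SNAI2 with 7 counts.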
